A study of Mus musculus with 4 samples.

Results

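The genes described here are 57 mouse genes of interferon signalling: the receptors for type I and type II interferon, the kinases and transcription factors behind them, and stimulated antiviral genes. They were chosen by name, as rows of the deposited gene tables whose identifier equals a listed symbol, and 56 of the 57 had a row among 23358 gene rows. Ifi27 had no row under that name. A row named Ifi27l1, which the RefSeq table gives as a synonym of Ifi27, stood at 32.1 and 57.2 CPM in 2xSCS2F10 beside 66.2 and 61.5 CPM in 2xSCS70 (adjusted p = 0.204) and is not counted below.

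Their polyadenylated RNA was sequenced in 2 clonal mouse cell lines labelled as progenitors of interstitial cells of Cajal, which pace the contractions of gut muscle, with 2 libraries for each line. The line 2xSCS2F10 came from the gastric muscle coat of C57BL/6J mice and grew at 37 °C in a neural stem cell proliferation medium with 5% chick embryo extract. The line 2xSCS70 was derived from the same tissue of H-2Kb-tsA58 mice and was cultured in that medium at 39.5 °C, with no interferon-gamma and, as far as the labels list, no chick embryo extract. H-2Kb-tsA58 mice carry a temperature-sensitive large T antigen of a simian virus under the promoter of the class I gene H-2Kb, which interferon can induce, and the antigen is unstable at the higher temperature. Line, mouse strain, transgene, temperature and chick embryo extract thus changed together, and their parts in any difference cannot be told apart. Each line is 1 clone, and whether the libraries came from separate cultures is not stated in the labels. The p-values thus set a difference against the variation within these pairs of libraries, which may be technical only. They do not extend to other clones.

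Interferons bind cell surface receptors whose kinases of the Janus family phosphorylate STAT proteins. Type I interferons act through Ifnar1 and Ifnar2 and assemble a complex of STAT proteins with Irf9, which binds the interferon-stimulated response element in front of target genes, whereas interferon gamma acts through Ifngr1 and Ifngr2 and a STAT dimer that binds the gamma-activated site. The targets include enzymes that degrade or sense viral RNA, proteins that block viral entry and budding, and GTPases that attack vacuoles of intracellular pathogens, and many cells keep a low level of these genes without added interferon.

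Fragments in genes numbered 20159986 and 22549451 in the libraries of 2xSCS2F10 and 24485632 and 22368504 in those of 2xSCS70, where each pair of library values, here and below, gives replicate 1 first. Levels are in CPM, counts relative to the TMM-scaled library size, and 3 fragments, taken as the detection floor, stood at 0.109 to 0.157 CPM. Means are given ± SD over the 2 libraries of a line, with 2xSCS70 first where the lines are set against each other, and fold changes are fitted by edgeR. Kit, the defining receptor of the mature form of these cells, had 0 fragments in 3 libraries and 1 in the other. Ano1, their chloride channel, was lower in 2xSCS70, at 29.8 and 18.4 CPM in 2xSCS2F10 beside 2.29 and 2.55 CPM in 2xSCS70 (adjusted p = 0.00219). Of the 5 markers of the cell type, Kit, Thbs4 and Hcn4 had too few counts to be tested. Etv1 had 1 and 7 fragments in 2xSCS2F10 beside 15 and 19 in 2xSCS70 and was not called (log2 1.65, SE 0.81, adjusted p = 0.160). Of 12 leukocyte markers 11 had a row. Their summed level was 6.88 and 10.02 CPM in 2xSCS2F10 beside 10.9 and 11.2 CPM in 2xSCS70, with Emr1 and Tyrobp at 0 in all 4 libraries, Itgam at 1 fragment over all of them, and the common leukocyte antigen Ptprc at 0 in 3 libraries and at 3 fragments in 2xSCS2F10 replicate 1. Cd68 and Lyz2, lysosomal proteins abundant in macrophages, were called higher in 2xSCS70. Cd68 stood at 2.90 and 3.90 against 1.54 and 1.73 CPM, and Lyz2 at 1.31 and 2.22 against 0.154 and 0.157 CPM. Csf1r went the other way, with both 2xSCS70 libraries below both of 2xSCS2F10, but was not called (log2 -1.24, SE 0.40, adjusted p = 0.0626). Cd14 and Fcer1g were not called either (log2 0.11 and 1.03, adjusted p = 0.816 and 0.147).

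Markers of other cell types of the gastric wall also differed between the lines. All 3 mesothelial markers were lower in 2xSCS70, with summed levels of 1700.1 and 1739 CPM in 2xSCS2F10 beside 26.5 and 22.3 CPM in 2xSCS70, and Upk3b, a membrane protein of mesothelium, was 263-fold lower (adjusted p = 0.000347). All 4 smooth muscle markers were lower too, with sums of 3595 and 6238 CPM in 2xSCS2F10 beside 681 and 636 CPM in 2xSCS70, among them the contractile proteins Cnn1 (644-fold, adjusted p = 0.000347) and Myh11 (103-fold, adjusted p = 0.00316). Of 4 endothelial markers 1 was higher and 1 lower, with sums of 5.80 and 9.34 CPM in 2xSCS2F10 beside 4.86 and 4.11 CPM in 2xSCS70. Of 4 markers of the progenitor lines, Cd34 and Cd44 were 3.83-fold and 2.19-fold higher in 2xSCS70 (adjusted p = 0.0120 and 0.00690), Igf1r was 1.48-fold lower (adjusted p = 0.0174) and Insr was not called. These markers separate the same libraries as the interferon genes do, and their part in the differences given below was not tested.

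Antiviral effectors and other interferon-stimulated genes were mostly higher in 2xSCS70, 29 of 40 tested, while 2 of the 4 receptor genes were lower and 1 was higher. Of 57 listed members 55 passed the filter on low counts and were tested, Gbp6 being left out along with Ifi27. By edgeR's quasi-likelihood test at an adjusted p under 0.05 over all genes, 35 of the 55 were higher in 2xSCS70, 63.6% beside 18.8% of all 14496 tested genes, and 5 were lower, 9.09% beside 21.8%. The other 15 were not called. Of the 35, 27 differed by 2-fold or more, and Jak2 was the lower member that did. The median log2 fold change (2xSCS70 minus 2xSCS2F10) was 1.14 over the tested members and 0.02 over all tested genes. Of the 40 tested sensors, effectors, GTPases and other stimulated genes, 1 was lower, Samhd1. Members lacking signal in 2xSCS2F10 could pass the filter through 2xSCS70 alone, so these counts describe the members that passed. In RNA of whole cultures, more cells with a transcript and more transcript per cell cannot be told apart.

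**Figure D1:**
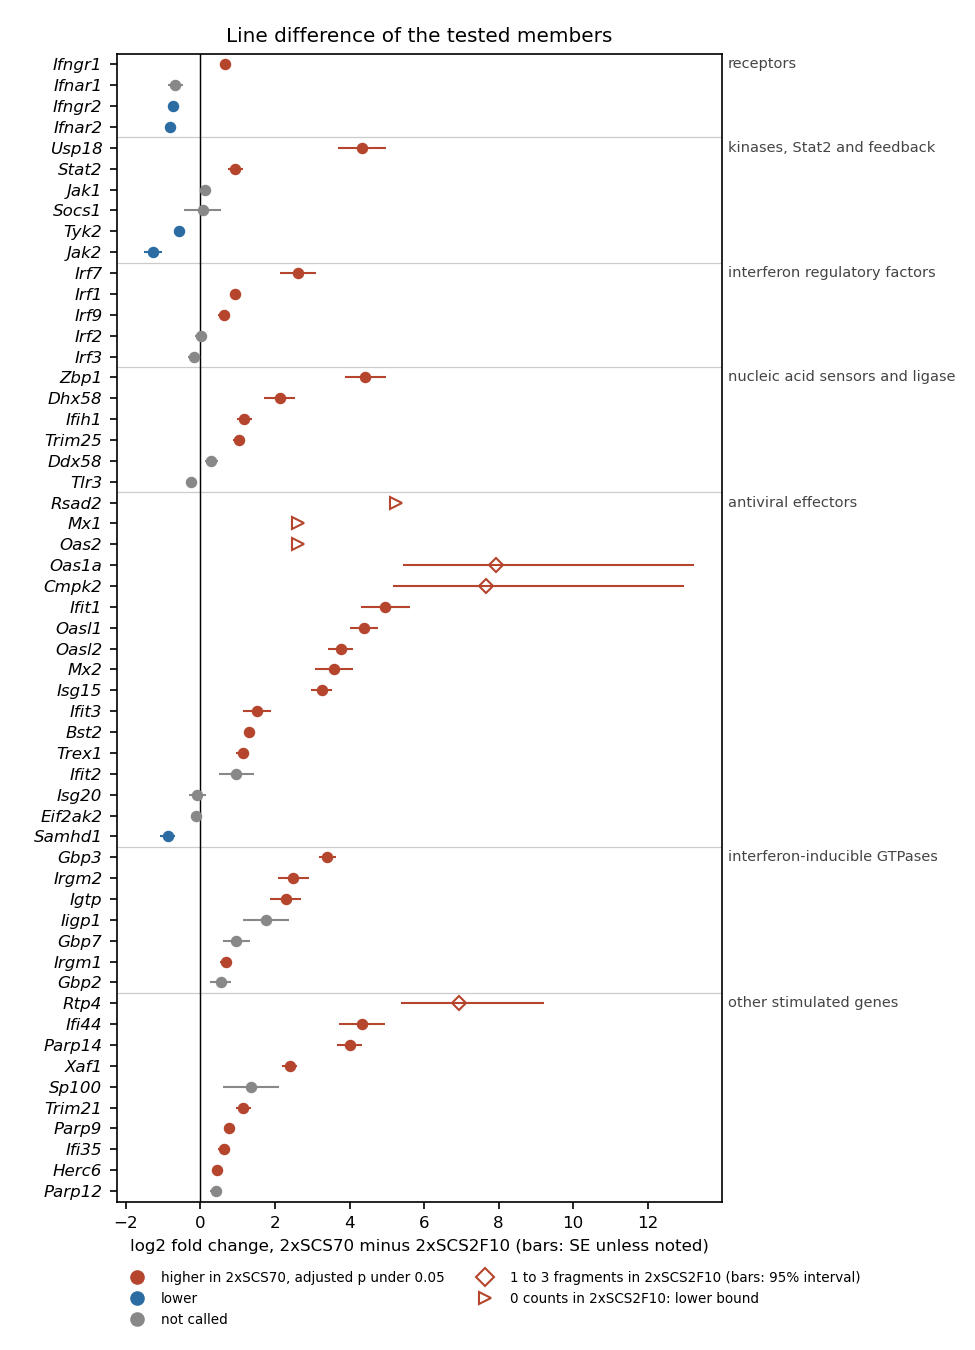
Log2 fold change of each tested member (2xSCS70 minus 2xSCS2F10, n = 2 libraries per line), by role; bars are SE, or exact 95% intervals for members with 1 to 3 fragments in 2xSCS2F10, and triangles are lower bounds for members with 0. Of 55 members 35 were higher and 5 lower, and the antiviral effectors spread furthest to the right.

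Levels per length also differed between the lines. In RPKM, reads relative to coding length and library size as the authors computed them, 26 and 25 of the 56 members were under 1 in the libraries of 2xSCS2F10, and 6 and 8 in those of 2xSCS70. Samhd1 (replicate 1, 59.3 RPKM) and Ifngr2 (replicate 2, 35.0 RPKM) had the highest level in 2xSCS2F10, and the GTPase Irgm1 in both libraries of 2xSCS70 (41.0 and 35.4 RPKM). RPKM lacks the TMM scaling, and over all tested genes the median was 0.15 on log2(RPKM + 1) values, where 22.2% of genes were called higher and 12.6% lower. On that scale 38 members were higher and 1 lower.

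Of the 4 receptor chains, 3 were at a lower level in 2xSCS70, 2 of them past the threshold, and 1 was higher. The shares called, 50% lower and 25% higher, rest on 4 genes, beside 21.8% and 18.8% of all tested genes. Ifnar2, the high-affinity chain of the type I receptor (chromosome 16, 91372783 to 91405587, mm10), stood at 56.0 and 62.4 CPM in 2xSCS2F10 beside 34.7 and 32.8 CPM in 2xSCS70, 1.76-fold lower (log2 -0.81, SE 0.13, adjusted p = 0.00913). Its partner Ifnar1 stood at 131 and 189.5 CPM in 2xSCS2F10 beside 95.8 and 105 CPM in 2xSCS70, with the libraries of 2xSCS2F10 above those of 2xSCS70 but far apart, and missed the threshold (log2 -0.68, SE 0.20, adjusted p = 0.0510). Ifngr2, the signalling chain of the interferon gamma receptor, was 1.68-fold lower, at 125 and 112 CPM in 2xSCS2F10 beside 71.4 and 69.6 CPM in 2xSCS70 (log2 -0.75, SE 0.12, adjusted p = 0.00920). Its ligand-binding chain Ifngr1 moved the other way, 1.58-fold higher, at 24.2 and 26.1 CPM in 2xSCS2F10 beside 38.1 and 41.5 CPM in 2xSCS70 (log2 0.66, SE 0.13, adjusted p = 0.0160). Per length, Ifngr2 exceeded Ifngr1 in both lines, by means of 40.7 against 8.47 RPKM in 2xSCS2F10 and 28.4 against 15.8 RPKM in 2xSCS70. The 3 calls ended when a 2xSCS70 library was left out (adjusted p 0.112 to 0.142 without 2xSCS70 replicate 1 and 0.131 to 0.189 without its replicate 2) and against a 1.5-fold change (0.0859 to 0.315), and those of Ifnar2 and Ifngr2 also on log2(RPKM + 1) (0.0687 and 0.107) and log2(RPKM + 0.1) values (0.0634 and 0.104). Ifnar1 was called lower with DESeq2 (adjusted p = 0.0196), with the replicate number as a block (0.0354) and on halved counts (0.0483). Its log2 fold change was -0.93 without 2xSCS2F10 replicate 1 and -0.39 without replicate 2 of that line.

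The receptor kinases were level or lower in 2xSCS70, and Stat2 and the feedback protease Usp18 were higher. Jak1, the kinase shared by both receptors, stood at 140.1 and 142 CPM in 2xSCS2F10 beside 157 and 148 CPM in 2xSCS70 and was not called (log2 0.11, SE 0.11, adjusted p = 0.448). Jak2, which the interferon gamma receptor also uses, was 2.40-fold lower, at 98.4 and 155 CPM in 2xSCS2F10 beside 52.7 and 53.0 CPM in 2xSCS70 (log2 -1.26, SE 0.24, adjusted p = 0.0143). Tyk2, the other kinase of the type I receptor, was 1.49-fold lower, at 20.9 ± 2.39 against 31.1 ± 0.409 CPM (log2 -0.57, SE 0.14, adjusted p = 0.0310). For Jak2 and Tyk2 the lines did not overlap, and the wide pair for Jak2 was that of 2xSCS2F10. The share of all genes without overlap was not counted. Stat2, the partner of Irf9 in the type I complex, was 1.90-fold higher, at 39.5 and 27.9 CPM in 2xSCS2F10 beside 67.0 and 61.2 CPM in 2xSCS70 (log2 0.93, SE 0.20, adjusted p = 0.0210). Usp18, which removes Isg15 from proteins and damps type I receptor signalling, went from 0.103 and 0.525 CPM in 2xSCS2F10 to 6.53 and 6.25 CPM in 2xSCS70 (20.3-fold higher, log2 4.34, SE 0.64, adjusted p = 0.00758). The other feedback gene, Socs1, an inhibitor of Janus kinases, was at 1.64 and 0.892 CPM in 2xSCS2F10 beside 1.74 and 0.904 CPM in 2xSCS70, with overlapping lines (log2 0.06, SE 0.50, adjusted p = 0.926). The 4 calls ended without a 2xSCS70 library (adjusted p 0.0790 to 0.165 without 2xSCS70 replicate 1 and 0.0770 to 0.277 without its replicate 2), those of Tyk2 and Stat2 against a 1.5-fold change (0.579 and 0.104), and that of Tyk2 on RPKM values (0.348 and 0.342). Without 2xSCS2F10 replicate 1 the fold of Usp18 was 12.01, and without its replicate 2, which left 2 fragments in that line, the ratio was 62.3 (exact 95% interval 17.1 to 516).

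**Figure D2:**
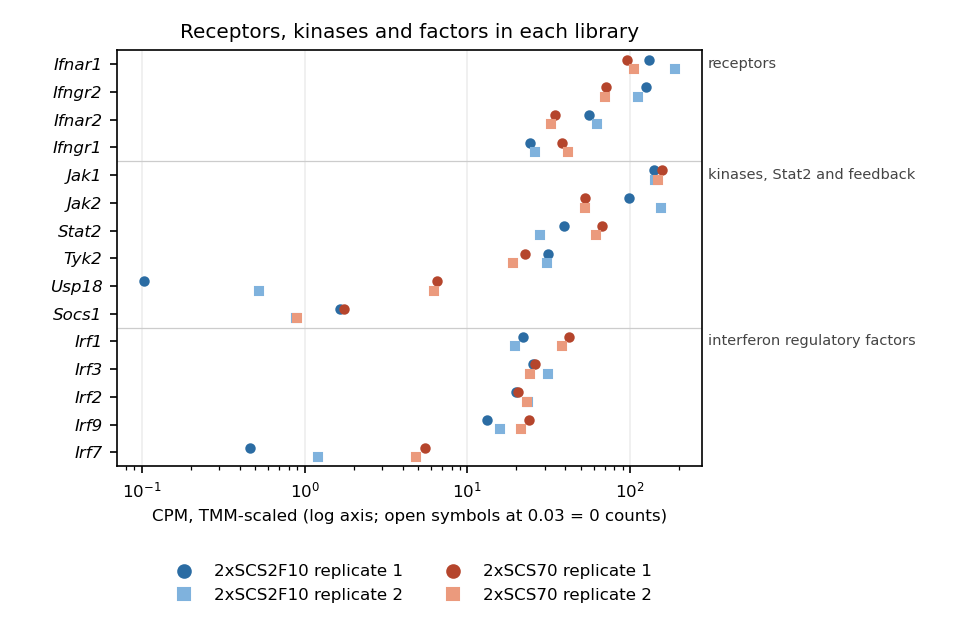
CPM of the receptors, kinases and factors in each library (log axis, circles replicate 1, squares replicate 2, blue 2xSCS2F10, red 2xSCS70). The type I receptor chains, Ifngr2, Jak2 and Tyk2 lie lower in 2xSCS70, and Ifngr1, Stat2, Usp18, Irf1, Irf7 and Irf9 higher.

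Among the 5 interferon regulatory factors 3 were higher in 2xSCS70 (60%, beside 18.8% of all tested genes) and 2 were not called. Irf1, a factor of the interferon gamma response, was 1.91-fold higher, at 22.1 and 19.7 CPM in 2xSCS2F10 beside 42.0 and 37.9 CPM in 2xSCS70 (log2 0.93, SE 0.14, adjusted p = 0.00783). Irf9, the DNA-binding part of the type I complex, was 1.54-fold higher, at 13.3 and 15.9 CPM in 2xSCS2F10 beside 23.8 and 21.2 CPM in 2xSCS70 (log2 0.63, SE 0.16, adjusted p = 0.0357). Irf7, which drives interferon alpha genes and is itself a stimulated gene, was 6.15-fold higher and rare in 2xSCS2F10, at 0.462 and 1.21 CPM in 2xSCS2F10 beside 5.48 and 4.81 CPM in 2xSCS70 (log2 2.62, SE 0.48, adjusted p = 0.0136). In all 3 genes both libraries of 2xSCS70 lay above both of 2xSCS2F10. Uncalled members such as Ddx58 did so too, and the share over all genes was not counted. Irf3, which resting cells hold ready for interferon beta induction, was at 25.3 ± 1.32 against 28.3 ± 4.10 CPM (adjusted p = 0.441), and Irf2, an antagonist of Irf1, at 21.8 ± 1.94 against 21.6 ± 2.57 CPM (adjusted p = 0.960). Without 2xSCS2F10 replicate 1 the log2 fold change of Irf3 was -0.32, and the fold of Irf7 was 11.1 without replicate 2 of that line. The 3 calls ended without a 2xSCS70 library (adjusted p 0.114 to 0.274 without 2xSCS70 replicate 1 and 0.0904 to 0.193 without its replicate 2), and that of Irf9 with the replicate number as a block (0.0602) and against a 1.5-fold change (0.446).

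Interferon transcripts themselves were not detectable at this depth. Of 10 listed interferon genes 8 had a row, and Ifng, Ifna1, Ifna2, Ifna4 and Ifna5 had 0 fragments in all 4 libraries. Ifnb1 had 1 fragment in 2xSCS70 replicate 1, Ifnk 1 in 2xSCS70 replicate 2 and Ifne 1 in 2xSCS2F10 replicate 2. These values lie under the floor of 3 fragments in every library, and none of these genes was tested.

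Sensors of viral nucleic acid divided into genes that were higher in 2xSCS70 and genes that were not called. Ifih1, the RNA helicase known as MDA5, was 2.26-fold higher, at 12.9 and 9.34 CPM in 2xSCS2F10 beside 24.6 and 25.7 CPM in 2xSCS70 (log2 1.18, SE 0.20, adjusted p = 0.0109), and the regulatory helicase Dhx58 4.38-fold higher, at 4.66 ± 0.544 against 1.06 ± 0.535 CPM (log2 2.13, SE 0.42, adjusted p = 0.0159). Trim25, a ubiquitin ligase that acts on the helicase Ddx58, was 2.05-fold higher, at 37.2 and 46.3 CPM in 2xSCS2F10 beside 83.9 and 87.2 CPM in 2xSCS70 (log2 1.03, SE 0.15, adjusted p = 0.00749). Zbp1, a sensor of Z-form nucleic acid that can start necroptosis, had 1 and 3 fragments in 2xSCS2F10 and 73 and 47 in 2xSCS70, 0.0514 and 0.157 against 2.65 and 1.93 CPM (21.5-fold higher, log2 4.43, SE 0.56, adjusted p = 0.00502). Ddx58, also called RIG-I, stood at 31.1 and 41.3 CPM in 2xSCS2F10 beside 43.7 and 45.0 CPM in 2xSCS70, with both 2xSCS70 libraries above the others by less than the spread within 2xSCS2F10 (log2 0.29, SE 0.17, adjusted p = 0.229). Tlr3, an endosomal receptor of double-stranded RNA, was at 15.0 ± 0.477 against 17.7 ± 1.90 CPM (adjusted p = 0.266). Without 2xSCS2F10 replicate 2, the log2 fold change was 0.51 for Ddx58 and -0.35 for Tlr3. The ratio of Zbp1 was then 45.0 (exact 95% interval 7.93 to 1793). Without replicate 1 that ratio was 14.7 (exact 95% interval 4.91 to 72.2), and the fold of Dhx58 was 6.75. The 4 calls ended without a 2xSCS70 library (adjusted p 0.0651 to 0.135 without 2xSCS70 replicate 1 and 0.0549 to 0.119 without its replicate 2).

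Antiviral effectors held the widest differences, and several were close to absent from 2xSCS2F10. Of 17 tested members 13 were higher in 2xSCS70 (76.5%), all by 2-fold or more, 1 was lower (5.88%) and 3 were not called. Of all tested genes 18.8% were higher and 21.8% lower. Rsad2, or viperin, a radical enzyme that makes a chain-terminating nucleotide (chromosome 12, 26442743 to 26456452), had 0 fragments in both 2xSCS2F10 libraries and 173 and 136 in 2xSCS70 (6.28 and 5.59 CPM), at least 38.1-fold higher against a floor of 3 fragments per library (adjusted p = 0.00161). Cmpk2, a mitochondrial nucleotide kinase whose gene lies beside it (chromosome 12, 26469215 to 26479837), had 1 and 0 fragments in 2xSCS2F10 and 149 and 125 in 2xSCS70 (5.41 and 5.14 CPM), a ratio of 203 (exact 95% interval 36.2 to 8062). The dynamin-like GTPase Mx1, which in common laboratory strains carries a disabling deletion, had 0 fragments in 2xSCS2F10 and 28 and 22 in 2xSCS70, at least 6.16-fold higher (adjusted p = 0.00630). Its neighbour Mx2 stood at 0.360 and 1.05 CPM in 2xSCS2F10 beside 8.16 and 8.88 CPM in 2xSCS70, 12.1-fold higher (log2 3.59, SE 0.51, adjusted p = 0.00676). The wide intervals of the rarest genes come from counting a single fragment, and these intervals and bounds allow for counting error alone.

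Genes of the oligoadenylate synthetase family, named for enzymes that make the messenger activating ribonuclease L, were higher in 2xSCS70 in all 4 tested members. Oas1a had 0 and 1 fragments in 2xSCS2F10 and 177 and 152 in 2xSCS70 (6.42 and 6.25 CPM), a ratio of 244 (exact 95% interval 43.5 to 9675) and an adjusted p of 0.00169. Oas2 had 0 fragments in 2xSCS2F10 and 24 and 25 in 2xSCS70, at least 6.09-fold higher (adjusted p = 0.00649). The synthetase-like genes Oasl1 and Oasl2 were 20.9-fold and 13.5-fold higher, Oasl1 at 0.205 and 0.367 CPM in 2xSCS2F10 beside 6.31 and 5.75 CPM in 2xSCS70 (log2 4.39, SE 0.37, adjusted p = 0.00178) and Oasl2 at 15.9 ± 0.0188 against 1.17 ± 0.495 CPM (adjusted p = 0.00219). Reads of such close copies may be split or shared between them, since the handling of multiply mapped reads is not stated.

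Isg15, a ubiquitin-like modifier and one of the most strongly induced products of type I interferon, was 9.52-fold higher in 2xSCS70, at 1.03 and 1.42 CPM in 2xSCS2F10 beside 10.4 and 12.9 CPM in 2xSCS70 (log2 3.25, SE 0.28, adjusted p = 0.00187). The members of the Ifit cluster, which bind foreign 5′ ends of RNA, differed among themselves. Ifit1 was 31.1-fold higher, at 0.103 and 0.577 CPM in 2xSCS2F10 beside 10.6 and 10.6 CPM in 2xSCS70 (log2 4.96, SE 0.65, adjusted p = 0.00559). Ifit3 was 2.88-fold higher at low levels, at 0.514 and 0.367 CPM in 2xSCS2F10 beside 1.20 and 1.36 CPM in 2xSCS70 (log2 1.53, SE 0.38, adjusted p = 0.0296). Ifit2 was present in both lines, at 26.5 and 9.76 CPM in 2xSCS2F10 beside 32.9 and 37.9 CPM in 2xSCS70, and was not called (log2 0.96, SE 0.47, adjusted p = 0.158), its 2xSCS2F10 libraries being 2.72-fold apart. Bst2, or tetherin, which holds budding virus at the surface, was 2.47-fold higher, at 11.4 and 11.2 CPM in 2xSCS2F10 beside 29.6 and 26.1 CPM in 2xSCS70 (log2 1.30, SE 0.15, adjusted p = 0.00370), and the exonuclease Trex1, which clears cytosolic DNA, 2.20-fold higher, at 11.5 ± 0.0790 against 5.22 ± 0.104 CPM (adjusted p = 0.00873).

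With Ifit2, the other 3 effectors that were not higher in 2xSCS70 were Samhd1, Eif2ak2 and Isg20. Samhd1, which depletes nucleotides needed for reverse transcription, was 1.84-fold lower in 2xSCS70, at 308 and 216 CPM in 2xSCS2F10 beside 144 and 142 CPM in 2xSCS70 (log2 -0.88, SE 0.20, adjusted p = 0.0228). Eif2ak2, the kinase PKR that stops translation on double-stranded RNA, was at 98.7 ± 7.30 against 108 ± 3.14 CPM (adjusted p = 0.417) and the exonuclease Isg20 at 25.5 ± 0.619 against 26.9 ± 8.08 CPM (adjusted p = 0.797). Signs of both turned on log2(RPKM + 1) values (log2 0.10 and 0.18), and that of Isg20 also under upper quartile scaling (0.01). Without 2xSCS2F10 replicate 1 the log2 fold change of Isg20 was -0.37.

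Of the 14 called effectors 6, namely Isg15, Rsad2, Cmpk2, Oas1a, Oasl1 and Oasl2, remained called without a 2xSCS70 library (adjusted p 0.0366 to 0.0417 without replicate 1 and 0.0372 to 0.0414 without replicate 2), and the other 8 did not (adjusted p 0.0662 to 0.173 without 2xSCS70 replicate 1 and 0.0615 to 0.203 without its replicate 2). The call of Samhd1 also ended on RPKM values (0.138 and 0.123) and against a 1.5-fold change (0.128), and that of Ifit3 against a 1.5-fold change (0.0736) and with the block (0.0590). The fold of Mx2 was 8.02 without 2xSCS2F10 replicate 1 and 23.5 without its replicate 2, and that of Ifit1 was 18.1 without replicate 1, with a ratio of 103 (exact 95% interval 28.4 to 854) without replicate 2. Cmpk2 had 0 fragments left in 2xSCS2F10 without replicate 1 and Oas1a without replicate 2, and with the other library left out their ratios were 103 (exact 95% interval 18.3 to 4074) and 121 (exact 95% interval 21.5 to 4785). Without 2xSCS2F10 replicate 1 the log2 fold change of Ifit2 was 1.84, and without replicate 2 it was 0.41. The spread in such fits came from the 2xSCS70 pair alone, so they are given as effect sizes.

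**Figure D3:**
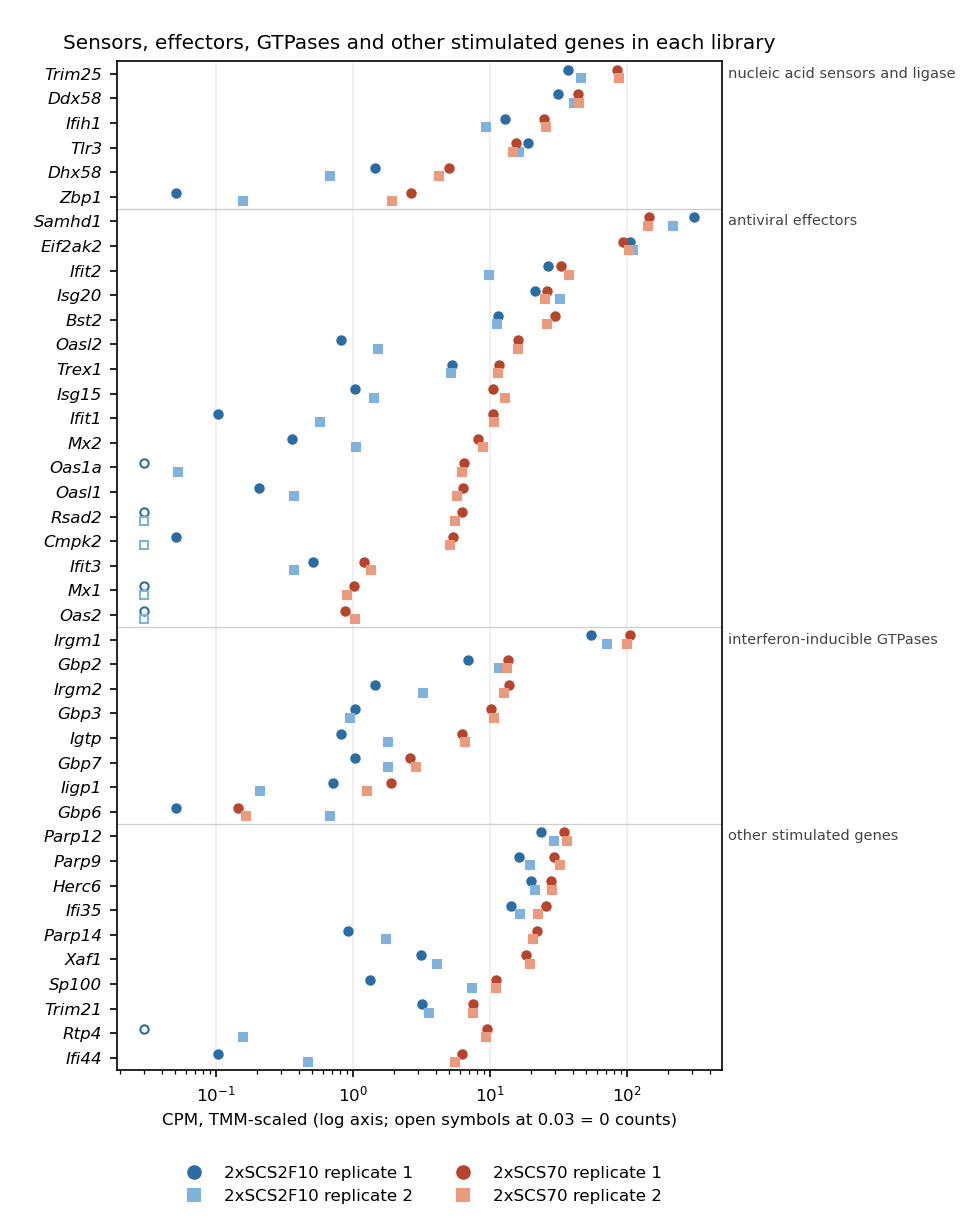
CPM of sensors, effectors, GTPases and other stimulated genes in each library (log axis, circles replicate 1, squares replicate 2, blue 2xSCS2F10, red 2xSCS70; open symbols at the left mark 0 counts). The 2xSCS70 libraries lie close together. By mean CPM, Samhd1, Eif2ak2, Isg20, Tlr3 and Gbp6 lie lower in 2xSCS70, and of these only Samhd1 was called.

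The stretches of promoter below show the element that several of these genes share. RefSeq promoter windows, 250 bases before to 50 after a gene's start (build GRCm38.p6, which is mm10, of strain C57BL/6J and not of the strain of 2xSCS70), were found for 45 of the 57 members. The first window of each gene was searched on both strands for the core of the interferon-stimulated response element, taken as a pair of GAAA runs with any 2 bases between them, and for the gamma-activated site, TTCNNNGAA, where N is any base. Each line gives 100 bases, 5′ to 3′ on the strand of the gene, with matches to either motif in capitals; where the element lies on the other strand it reads as a pair of TTTC runs. Isg15, Ifit1, Ifit3, Oas1a, Rsad2, Gbp3 and Bst2 are shown as called effectors or GTPases, Igtp and Irgm2 as a near-identical pair, and Eif2ak2 as a member with the element that was not called.
Isg15: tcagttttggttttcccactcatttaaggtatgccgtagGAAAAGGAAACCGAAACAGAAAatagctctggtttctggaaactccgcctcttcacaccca
Ifit1: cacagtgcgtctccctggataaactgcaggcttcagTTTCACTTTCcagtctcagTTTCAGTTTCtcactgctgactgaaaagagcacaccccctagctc
Ifit3: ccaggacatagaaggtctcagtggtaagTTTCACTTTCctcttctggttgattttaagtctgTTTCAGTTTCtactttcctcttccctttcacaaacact
Oas1a: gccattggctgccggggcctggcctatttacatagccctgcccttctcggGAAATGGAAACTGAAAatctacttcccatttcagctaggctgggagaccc
Rsad2: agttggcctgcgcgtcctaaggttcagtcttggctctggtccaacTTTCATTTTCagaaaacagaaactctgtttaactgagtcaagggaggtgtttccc
Gbp3: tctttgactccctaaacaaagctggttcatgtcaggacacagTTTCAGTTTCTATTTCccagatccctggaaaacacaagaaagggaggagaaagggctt
Bst2: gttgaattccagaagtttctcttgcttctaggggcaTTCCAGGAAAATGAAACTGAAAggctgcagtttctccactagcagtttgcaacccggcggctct
Igtp: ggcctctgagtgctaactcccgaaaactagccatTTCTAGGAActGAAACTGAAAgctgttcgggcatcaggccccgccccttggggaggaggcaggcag
Irgm2: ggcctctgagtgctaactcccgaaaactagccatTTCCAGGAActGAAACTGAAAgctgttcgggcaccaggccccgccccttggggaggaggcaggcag
Eif2ak2: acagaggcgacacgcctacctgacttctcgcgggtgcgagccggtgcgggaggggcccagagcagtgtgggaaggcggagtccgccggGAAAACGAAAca
The stretches lie at Isg15 chr4:156200836-156200935 (- strand), Ifit1 chr19:34640749-34640848 (+ strand), Ifit3 chr19:34583345-34583444 (+ strand), Oas1a chr5:120907496-120907595 (- strand), Rsad2 chr12:26456518-26456617 (- strand), Gbp3 chr3:142559957-142560056 (+ strand), Bst2 chr8:71537545-71537644 (- strand), Igtp chr11:58199477-58199576 (+ strand), Irgm2 chr11:58214868-58214967 (+ strand) and Eif2ak2 chr17:78882543-78882642 (- strand).

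Isg15 held 3 overlapping matches of the response element, the first starting 78 bases before the start of the gene, and Ifit1 held 2 separate matches, starting 104 and 85 bases before it. In Bst2 a gamma-activated site overlapped the first of 2 response elements. The stretches of Igtp and Irgm2 agreed at 98 of 100 bases, and in both a gamma-activated site began 11 bases before the response element. The match of Eif2ak2 began 18 bases after the start of its gene. Over all 27025 genes with a window, 943 (3.49%) held the response element, as did 19 of the 45 members (42.2%). It was present in 13 of 26 windows of members called higher, in 6 of 14 of members not called (Ddx58, Eif2ak2, Gbp2, Gbp7, Irf2 and Socs1) and in 0 of the 5 of members called lower. The gamma-activated site was present in 2288 windows of all genes (8.47%), in 6 of 26 of members called higher, 6 of 14 not called and 2 of 5 called lower (Ifnar2 and Samhd1). A match is a run of letters and no measured site of binding, and members without a match include Cmpk2, Oasl1, Oasl2, Ifi44 and Xaf1, all higher in 2xSCS70.

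**Figure D4:**
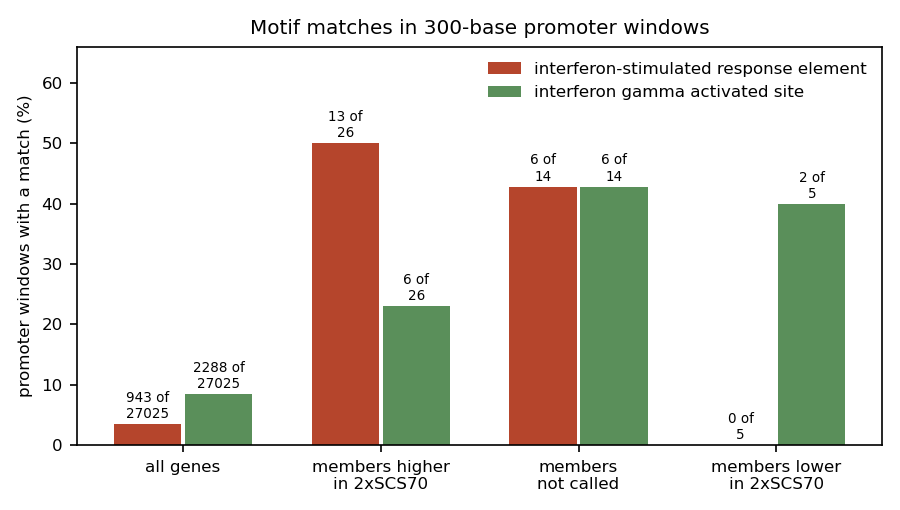
Share of promoter windows (%) that hold the core of the interferon-stimulated response element (red) or the gamma-activated site (green), for all genes and for members by call, with the numbers of windows above each bar. The response element was in 3.49% of all windows and in 13 of 26 windows of members called higher, but also in 6 of 14 of those not called.

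GTPases that act on pathogen vacuoles were higher in 2xSCS70 for 4 of the 7 tested members, 57.1% beside 18.8% of all tested genes. The other 3 were not called. Gbp3, a guanylate-binding protein, was 10.6-fold higher, at 1.03 and 0.945 CPM in 2xSCS2F10 beside 10.2 and 10.7 CPM in 2xSCS70 (log2 3.4, SE 0.22, adjusted p = 0.00102), the smallest adjusted p of all members. Irgm2 was 5.61-fold higher, at 1.44 and 3.25 CPM in 2xSCS2F10 beside 13.7 and 12.6 CPM in 2xSCS70 (log2 2.49, SE 0.41, adjusted p = 0.0104), and Igtp, or Irgm3, 4.90-fold higher, at 0.822 and 1.78 CPM in 2xSCS2F10 beside 6.24 and 6.53 CPM in 2xSCS70 (log2 2.29, SE 0.41, adjusted p = 0.0128). Irgm1, the regulatory GTPase linked to autophagy, was 1.62-fold higher, at 54.9 and 71.3 CPM in 2xSCS2F10 beside 104 and 99.6 CPM in 2xSCS70 (log2 0.69, SE 0.16, adjusted p = 0.0265). In these 4 genes the lines did not overlap, nor did they in the uncalled Gbp2, and the share over all genes was not counted.

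Gbp2 stood at 6.88 and 11.5 CPM in 2xSCS2F10 beside 13.5 and 13.3 CPM in 2xSCS70, the lines being apart by less than the gap within 2xSCS2F10 (log2 0.54, SE 0.28, adjusted p = 0.179). Gbp7 was at 2.74 ± 0.187 against 1.41 ± 0.535 CPM (adjusted p = 0.0888) and Iigp1, an effector against vacuoles, at 1.58 ± 0.433 against 0.465 ± 0.360 CPM (adjusted p = 0.0767). Gbp6 had 1 and 13 fragments in 2xSCS2F10 and 4 and 4 in 2xSCS70 and was not tested. The call of Gbp3 remained without a 2xSCS70 library (adjusted p 0.0340 and 0.0356), while those of Irgm1, Irgm2 and Igtp ended (adjusted p 0.0952 to 0.192 without 2xSCS70 replicate 1 and 0.0881 to 0.168 without its replicate 2), and that of Irgm1 also against a 1.5-fold change (0.300). Without 2xSCS2F10 replicate 2 the folds of Irgm2 and Igtp were 9.13 and 7.73. The log2 fold changes of Gbp2, Gbp7 and Iigp1 were then 0.96, 1.41 and 1.14, and that of Iigp1 was 2.89 without replicate 1. Iigp1 was called higher with the block (adjusted p = 0.0407), and on log2(RPKM + 1) values Gbp7 (0.0225) and Iigp1 (0.0353) passed too.

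The remaining stimulated genes were higher in 8 of 10 tested members, 80% beside 18.8% of all tested genes. Folds ranged from 1.36 for Herc6 to 16.0 for Parp14 and 20.3 for Ifi44, with a ratio of 121 for Rtp4. Rtp4, a chaperone-like protein, had 0 and 3 fragments in 2xSCS2F10 and 262 and 229 in 2xSCS70 (9.51 and 9.41 CPM), a ratio of 121 (exact 95% interval 41.3 to 591) and an adjusted p of 0.00363. Parp14, an ADP-ribosyltransferase, was 16.0-fold higher, at 0.925 and 1.73 CPM in 2xSCS2F10 beside 22.1 and 20.5 CPM in 2xSCS70 (log2 4.0, SE 0.34, adjusted p = 0.00182). Its relative Parp9 was 1.71-fold higher (adjusted p = 0.0171), and Parp12 missed the threshold at 35.4 ± 1.21 against 26.4 ± 4.04 CPM (adjusted p = 0.0870). Xaf1, an antagonist of the apoptosis inhibitor XIAP, was 5.24-fold higher, at 3.13 and 4.09 CPM in 2xSCS2F10 beside 18.4 and 19.5 CPM in 2xSCS70 (log2 2.39, SE 0.21, adjusted p = 0.00199). Ifi44 was 20.3-fold higher, at 0.103 and 0.472 CPM in 2xSCS2F10 beside 6.24 and 5.51 CPM in 2xSCS70 (adjusted p = 0.00685).

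Smaller differences were seen for Trim21, an intracellular antibody receptor (2.22-fold, adjusted p = 0.0129), Ifi35 (1.55-fold, 0.0327) and Herc6, the ligase that attaches Isg15 in mice (1.36-fold, 0.0451), all higher in 2xSCS70. Sp100, a nuclear body protein, stood at 1.34 and 7.35 CPM in 2xSCS2F10 beside 11.1 and 11.1 CPM in 2xSCS70 and was not called (log2 1.36, SE 0.74, adjusted p = 0.199), with its 2xSCS2F10 libraries 5.50-fold apart. Parp9 overlaps the gene Dtx3l by 558 bases, and reads there cannot be assigned to one of them without strand. Parp14 and Xaf1 remained called without a 2xSCS70 library (adjusted p 0.0388 to 0.0448 without replicate 1 and 0.0367 to 0.0474 without replicate 2), and the other 6 did not (adjusted p 0.0573 to 0.283 without 2xSCS70 replicate 1 and 0.0568 to 0.300 without its replicate 2). Herc6 missed the threshold in 9 of 13 alternatives, DESeq2 among them (0.0587), Ifi35 with the block (0.0573) and against a 1.5-fold change (0.425), and Parp9 in the latter (0.159). Without 2xSCS2F10 replicate 1 the fold of Ifi44 was 12.3 and the ratio of Rtp4 60.1 (exact 95% interval 20.4 to 292), and without replicate 2 the ratio of Ifi44 was 57.4 (exact 95% interval 15.8 to 476) and Rtp4 had 0 fragments left in 2xSCS2F10. The log2 fold change of Sp100 was 0.58 without 2xSCS2F10 replicate 1 and 3.05 without its replicate 2, where that of Parp12 was 0.58. On log2(RPKM + 1) values Sp100 (adjusted p = 0.0412) and Parp12 (0.0496) were called higher.

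Members and other pathway genes within 200 kb of each other formed 16 neighbourhoods with at least 2 tested genes, and the log2 fold changes had 1 sign in 12 of them and both signs in 4. On chromosome 16, Ifnar2, Ifnar1 and Ifngr2 lie with Il10rb, a receptor chain of interleukin 10 and interferon lambda, between 91372783 and 91564007 (mm10), and all 4 stood lower in 2xSCS70, 3 of them past the threshold. The 5 Oas genes on chromosome 5, between 120730333 and 120907525, were all called higher, as were Rsad2 and Cmpk2 on chromosome 12 and Mx1 and Mx2 on chromosome 16. In the Gbp group on chromosome 3, between 142496934 and 142638008, all 4 tested genes stood higher, Gbp3 past the threshold and Gbp2, Gbp5 and Gbp7 not. Both signs were found for Sp100 (log2 1.36) and Sp110 (-2.25), neither of them called, and for Dhx58 (2.13, called higher) and Stat3 (-0.67, not called). The other 2 held no members: Slfn2 (-1.35, not called) lies with Slfn8 and Slfn9, both called higher, and Ifitm2 (-0.65, called lower) with Ifitm3 (0.38, not called). Several of these neighbours are related copies, and their values are not independent. Both lists had a positive median log2 fold change (1.14 for members, 0.38 for the other pathway genes), so shared signs are common among them at any distance. No comparison with distant genes was made.

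Other genes of the pathway, from a list of 74 symbols of which 66 had a row and 53 were tested, were higher in 20 cases and lower in 6 (37.7% and 11.3%, beside 18.8% and 21.8% of all genes), with a median log2 fold change of 0.38. Among the 31 tested further stimulated genes 16 were higher and 3 lower (51.6% and 9.68%). Slfn9, of the Schlafen family, was 9.85-fold higher (49.6 ± 1.26 against 5.03 ± 0.511 CPM, adjusted p = 0.000502), the secreted Lgals3bp 4.5-fold higher (65.0 ± 3.62 against 14.5 ± 0.258 CPM, adjusted p = 0.000791) and Apol9a 22.7-fold higher (3.01 ± 0.362 against 0.130 ± 0.0387 CPM, adjusted p = 0.00212). Of 11 tested adaptors and sensors of induction 2 were higher and 1 lower (18.2% and 9.09%), the higher share being near that of all genes. Nlrc5, the transactivator of class I genes, went from 0.0514 and 0.735 to 20.03 and 22.4 CPM (53.9-fold, log2 5.75, SE 0.82, adjusted p = 0.00697), the sensor Ifi204 was 2.55-fold higher (56.8 ± 0.700 against 22.3 ± 1.11 CPM, adjusted p = 0.00223), and Ticam1, the adaptor of Tlr3, 1.70-fold lower (13.8 ± 0.911 against 23.5 ± 4.87 CPM, adjusted p = 0.0323).

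Among 11 tested further receptors and signalling genes 2 were higher and 2 lower (18.2% each, near the 18.8% and 21.8% of all tested genes). Il10rb stood at 21.5 ± 1.37 against 91.6 ± 7.08 CPM, which was 4.26-fold lower (adjusted p = 0.000989), and the phosphatase Ptpn6 5.04-fold higher (1.84 ± 0.244 against 0.362 ± 0.141 CPM, adjusted p = 0.0124). H2-K1, the class I gene whose promoter drives the transgene of 2xSCS70, was 13.7-fold higher, at 4.78 and 9.18 CPM in 2xSCS2F10 beside 100.5 and 91.0 CPM in 2xSCS70 (log2 3.78, SE 0.35, adjusted p = 0.00223). Of the listed genes named here, Slfn9, Lgals3bp, Apol9a and Il10rb remained called without a 2xSCS70 library, with adjusted p of 0.0226 to 0.0426 without replicate 1 and 0.0232 to 0.0388 without replicate 2. In the order of those replicates, the adjusted p of Nlrc5 (0.0744 and 0.0780), Ifi204 (0.0558 and 0.0567), Ticam1 (0.189 and 0.238) and Ptpn6 (0.0979 and 0.119) no longer passed. The fold of Nlrc5 was 28.5 without 2xSCS2F10 replicate 1 and its ratio 412 (exact 95% interval 73.7 to 16268) without replicate 2.

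More members passed 2-fold between the libraries of 2xSCS2F10 than between those of 2xSCS70. In 2xSCS2F10, 15 of 55 members differed by more than 2-fold on the log2 CPM scale with a prior count of 2, beside 12.4% of all tested genes. Of these members 11 were higher in replicate 2 (beside 5.75% of all genes) and 4 lower (beside 6.61%). In 2xSCS70 the count was 0 of 55, beside 2.72% of all genes (1.59% higher and 1.12% lower in replicate 2). These are single libraries, so no test was made of these differences. Of the 15, Zbp1, Oas1a, Cmpk2 and Rtp4 had at most 3 fragments in either library of 2xSCS2F10, where a step of 1 to 3 fragments sets the value, and 0 members were that low in 2xSCS70. A limit of over 3 fragments in a library of the line was chosen after seeing the data. Among members past it, 11 of 48 passed 2-fold in 2xSCS2F10 (beside 11.4% of all such genes) and 0 of 55 in 2xSCS70 (beside 2.37%). Those higher in 2xSCS2F10 replicate 2 included Sp100, Ifit1, Usp18, Ifi44, Mx2, Irf7, Irgm2 and Igtp, and Ifit2 and Iigp1 were among those lower. Ifit1 went from 2 to 11 fragments and Usp18 from 2 to 10, while Ifit2 went from 516 to 186. On log2(RPKM + 1) values, which compress low levels, 2 members passed 2-fold in 2xSCS2F10.

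**Figure D5:**
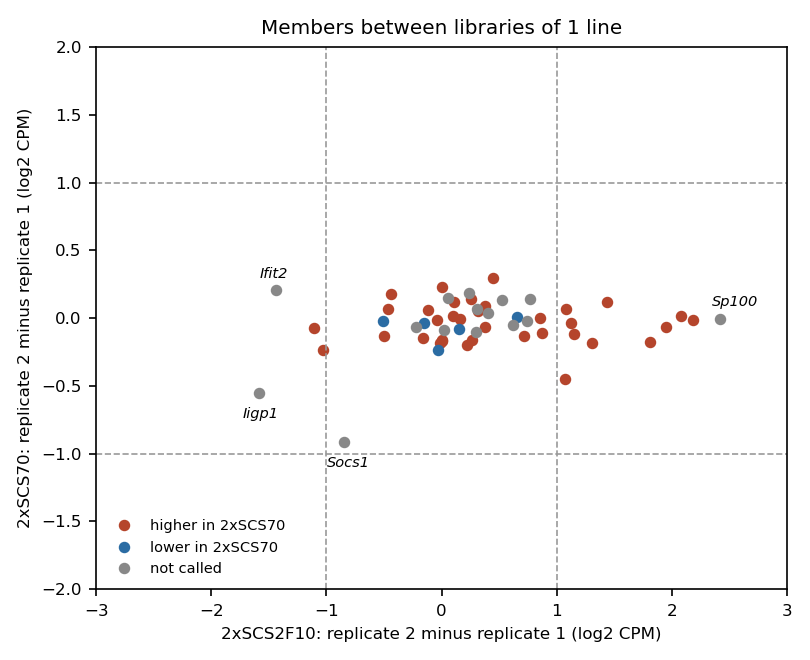
Log2 CPM of replicate 2 minus replicate 1 for each tested member, in 2xSCS2F10 (x axis) and in 2xSCS70 (y axis), coloured by the call between lines; dashed lines mark 2-fold. In 2xSCS2F10, 15 of 55 members lie past 2-fold, and 0 in 2xSCS70.

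Over all members, the number of calls depended on which libraries gave the spread. Without 2xSCS70 replicate 1, and likewise without its replicate 2, 9 members were called higher (2.01% and 2.18% of all tested genes) and 0 lower (3.86% and 3.95%), the spread then coming from the 2xSCS2F10 pair alone. The members called higher were the same in both cases, namely Cmpk2, Gbp3, Isg15, Oas1a, Oasl1, Oasl2, Parp14, Rsad2 and Xaf1. Among them, Rsad2 had 0 fragments in the 2xSCS2F10 pair, and Cmpk2 and Oas1a had 1 each. Their own pair thus holds almost no spread, and they could pass the filter through 2xSCS70 alone. For Rsad2, Cmpk2 and Oas1a, remaining called says little about how libraries vary. In fits without a 2xSCS2F10 library the spread came from the 2xSCS70 pair alone and left out the variation within 2xSCS2F10. Without 2xSCS2F10 replicate 1 the counts were 38 higher and 8 lower (32.9% and 33.1% of all genes), and without its replicate 2 they were 42 and 7 (30.2% and 31.6%), with all 40 calls kept in both. Fold changes of 12 called members moved by more than 1.5 times when a 2xSCS2F10 library was left out, and of 0 when a 2xSCS70 library was. With the replicate number as a block 32 members were higher and 6 lower (16.4% and 19.6% of all genes). DESeq2 gave 34 and 6 (17.9% and 21.7%), RLE scaling 34 and 5 (18.6% and 22.3%), upper quartile scaling 35 and 5 (21.6% and 19.4%), no filter 34 and 5 (13.7% and 16.2%) and halved counts 35 and 6 (19.3% and 22.1%). On log2(RPKM + 0.1) values the counts were 38 and 1 (23.3% and 13.5%), and against a 1.5-fold change 27 and 1 (9.23% and 12.1%).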

How the data were processed

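RNA-seq libraries of 2 mouse lines were used, 2 per line, made from total RNA with an Illumina TruSeq mRNA kit, per the labels' protocols. The kit name as given here does not say whether strand is marked. The submitters' processing notes name TopHat2 2.0.6, Bowtie and HTSeq and the build mm10, with no annotation given. As deposited by the authors, the tables hold gene counts and RPKM per coding length, 23358 gene rows per library. In the tables of replicate 1, 25 symbols stand as dates, and they were taken from the same positions in the tables of replicate 2; 69 rows have a symbol that occurs more than once. All counts were even (0 odd values), so 2 counts were taken as 1 fragment.

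Members were matched by exact symbol, and the members and gene lists were chosen with earlier results of these data known. Counts were fitted over all genes with edgeR 4.0.16 in R 4.3.3 (filterByExpr, TMM, quasi-likelihood test, Benjamini-Hochberg adjustment), and a gene was called at an adjusted p under 0.05. The SE is the log2 fold change over the square root of F. The filter left 14496 genes, and 8862 were untested; the biological coefficient of variation was 20.4%. For a gene with 0 fragments in 2xSCS2F10 the fold is a bound against 3 fragments per library, and with 1 to 3 the ratio of summed fragments has an exact 95% interval. Per-library values are given for the 3 called members with the smallest adjusted p in each role and for other members set by rule, and for the pathway list the 3 of each set with the smallest adjusted p are named, except 1 gene that is not reported here. Alternatives were leaving out each library, a block for the replicate number, scaling by RLE or by upper quartile, no filter, DESeq2 1.42.0, limma 3.58.1 on log2(RPKM + 1) and log2(RPKM + 0.1), halved counts and a test against a 1.5-fold change.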

Additional observations from a re-analysis of the deposited data

How the results depend on the processing

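The count of members higher in 2xSCS70 was 9 to 42 with a library left out and 27 to 38 under the other alternatives, against 35. The count lower was 0 to 8 with a library left out, against 5, and 1 on log2(RPKM + 1), 1 on log2(RPKM + 0.1) and 1 against a 1.5-fold change. In the pathway list the higher count was 4 to 31 with a library left out, against 20, and the lower count 1 to 14, against 6, and 10 with DESeq2, 2 on either RPKM scale and 1 against a 1.5-fold change. On log2(RPKM + 1), which damps differences at low levels, 2 members and not 15 passed 2-fold between the 2xSCS2F10 libraries. The median of all genes was 0.15 on log2(RPKM + 1) and 0.25 on log2(RPKM + 0.1), and 0.11 with upper quartile scaling, so that lower members stand less far from 0 there. Over all genes, same-numbered libraries did not deviate together (correlation 0.0539). Whether the number marks a shared batch cannot be told from this value. The deposited column names carry a mark that groups the libraries by number, and what it stands for is not stated. With the replicate number as a block, 32 members were higher and 6 lower, and 18 and 4 in the pathway list.

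Signs turned for 6 uncalled members. With a library left out the log2 fold change ranged from -0.49 to 0.56 for Socs1, from -0.12 to 0.14 for Irf2 and from -0.37 to 0.26 for Isg20. Irf2 was also at -0.0044 with RLE and -0.0013 with DESeq2, and Isg20 at 0.011 with upper quartile scaling. On log2(RPKM + 1) and log2(RPKM + 0.1) Irf3 stood at 0.075 and 0.081, Isg20 at 0.18 and 0.19 and Eif2ak2 at 0.10 and 0.11, and Tlr3 at 0.0019 on the latter. The cause was not tested. With 2 libraries per line the spread rests on few values, and genes under about 3 fragments are not detectable at this depth.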
